A study of Gallus gallus with 8 samples.

Results

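Genes of the ion channel families were examined in DT40, a line of B lymphoma cells from the chicken bursa whose immunoglobulin genes keep changing in culture. Members were the array's genes whose chicken RefSeq symbol, reached through the accession of a probe, begins with KCN, SCN, CACN, CLCN, GABR, GRIA, GRIK, GRIN and a digit, CHRN, TRPC, TRPM, TRPV or P2RX. This gave 66 genes out of 5005 with a symbol and 31523 gene entries in all. The nicotinic acetylcholine receptors formed the most numerous family, with 15 subunits. Potassium channels contributed 8 voltage-gated, 3 calcium- or sodium-activated, 2 tandem-pore and 4 inward rectifier genes and 5 auxiliary subunits. The rest were 7 GABA-A receptor subunits, 4 AMPA and 1 NMDA glutamate receptor subunits, 4 P2X receptors, 4 TRP channels, 2 voltage-gated calcium channels with 3 auxiliary subunits, and 1 gene each for a voltage-gated sodium channel, an epithelial sodium channel and a chloride transporter. TRPC4AP also meets the rule, although its product is a partner protein of a TRP channel and not a channel itself.

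The 8 arrays fall into 3 groups of DT40 cells. Cells labelled DKO, for deficiency of both IRF4 and BCL6, gave 3 arrays, BCL6-deficient cells (BCL6KO) gave 2, and wild-type cells (WT) gave 3. BCL6 represses transcription in B cells of the germinal centre, and IRF4 drives the genes by which B cells turn into plasma cells. The labels give no treatment or time, and do not say how the alleles were made or whether a knockout group is a single clone. The protocol for RNA extraction mentions 3 independent cultures, but of WT and IRF4KO cells, without a word on BCL6KO or DKO cells. The p-values therefore measure only the spread between these samples, which may be technical.

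Ion channels are membrane proteins that let ions cross when voltage, a ligand or an intracellular signal opens them, and most are assembled from several subunits, some forming the pore and others setting its gating or traffic. Many of these genes are best known from neurons and muscle. In lymphocytes, potassium channels keep the membrane negative, which sustains the calcium entry through ORAI channels that follows engagement of the antigen receptor, and P2X receptors respond to ATP outside the cell. The roles given below are known mainly from mammals, except where chicken is named.

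Levels are the log2 of each processed signal after subtraction of its array's 75th percentile, so that 0 is the signal at that percentile. Levels of different probes are not compared with each other. IRF4 read -1.72 ± 0.06 on the DKO-labelled arrays, 5.09 ± 0.42 on the BCL6KO arrays and 3.01 ± 0.13 on the WT arrays (mean ± SD, n = 3, 2 and 3). By this probe IRF4 remained well above background on all 3 DKO-labelled arrays, and by its other probe on none of them. BCL6 read 0.81 ± 0.14 on the DKO-labelled arrays, -4.73 ± 0.33 on the BCL6KO arrays and 2.56 ± 0.03 on the WT arrays, so it was 3.36-fold lower on the DKO-labelled arrays than on the WT arrays and remained well above background there. Of 4 BCL6 probes, 3 read well above background on every DKO-labelled array and 1 on none. In the deposited value table, the columns labelled WT followed the scanner arrays labelled DKO (r = 0.999), the columns labelled DKO followed a WT array best (r = 0.881 to 0.974), and the BCL6KO columns followed their own arrays (r = 0.998). Every comparison below therefore rests on the labels of the scanner files, and the arrays are called DKO-labelled throughout. Both BCL6KO arrays were scanned in a session of their own with another version of the scanner software, so session and genotype cannot be told apart in either comparison that uses them. The linear levels of 11 B lineage marker genes summed to 103.2 to 123.6 on the DKO-labelled arrays, 35.1 to 54.1 on the BCL6KO arrays and 214.6 to 238.1 on the WT arrays, in units of the 75th percentile signal. For BCL6KO against WT, 10 of the 11 were called lower and 0 higher, with a median log2 change of -6.77. Most of the BCL6KO sums came from the remaining marker, POU2AF1, at 4.95 and 5.66 against 5.12, 4.95 and 5.00 on the WT arrays. PAX5, which keeps B cell identity, was not well above background on either BCL6KO array, while CD79B, a signalling chain of the antigen receptor, was 439-fold lower on the BCL6KO arrays than on the WT arrays. Sums over 6 neuronal markers were 63.3 to 71.0, 0.465 to 1.28 and 36.6 to 39.7 in the DKO-labelled, BCL6KO and WT arrays, and sums over 7 muscle markers were 0.0470 to 0.0647, 0.215 to 0.315 and 0.0406 to 0.0812. Sums over 5 T cell markers were 8.45 to 11.0, 1.66 to 3.03 and 65.7 to 68.2 in the same groups, and sums over 5 macrophage markers were 2.07 to 2.09, 0.0700 to 0.0701 and 1.19 to 1.20. For 5 fibroblast markers the sums were 2.27 to 2.69, 0.153 to 0.171 and 0.326 to 0.356, and the 1 erythroid marker on the array read 1.05 to 1.098, 0.0158 to 0.0278 and 0.0218 to 0.0265. CD3D, at 6.04, 6.01 and 5.99, made up most of the T cell sums on the WT arrays, and COL1A2 most of the fibroblast sums. Other markers differed from their sums. CD28 read -2.96 and -2.51 on the BCL6KO arrays and -6.64, -7.25 and -6.59 on the WT arrays. For BCL6KO against WT, 1 T cell marker was called higher and 3 lower, and 2 fibroblast markers higher and 1 lower. The part of these markers in the results below was not tested. In such bulk samples, fewer cells of a type and less RNA per cell cannot be told apart.

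Many of the channel genes gave little signal in DT40 cells. With any of their probes, 25 of the 66 genes were well above background on all DKO-labelled arrays, 39 on both BCL6KO arrays and 25 on all WT arrays, while 34, 20 and 28 were not on any array of those groups. Over all 31523 gene entries the shares well above background on every array of the group were 61.1%, 72.0% and 58.1%, against 37.9%, 59.1% and 37.9% of the channel genes. The BCL6KO arrays accepted dimmer spots, with a lowest accepted level of -7.97 and -7.38 against -6.86 to -6.05 on the other arrays. Above a common level of -6.05, the counts of channel genes were 25 for the DKO-labelled, 29 for the BCL6KO and 27 for the WT arrays. Most of the larger count on the BCL6KO arrays thus lay among dim probes.

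**Figure D1:**
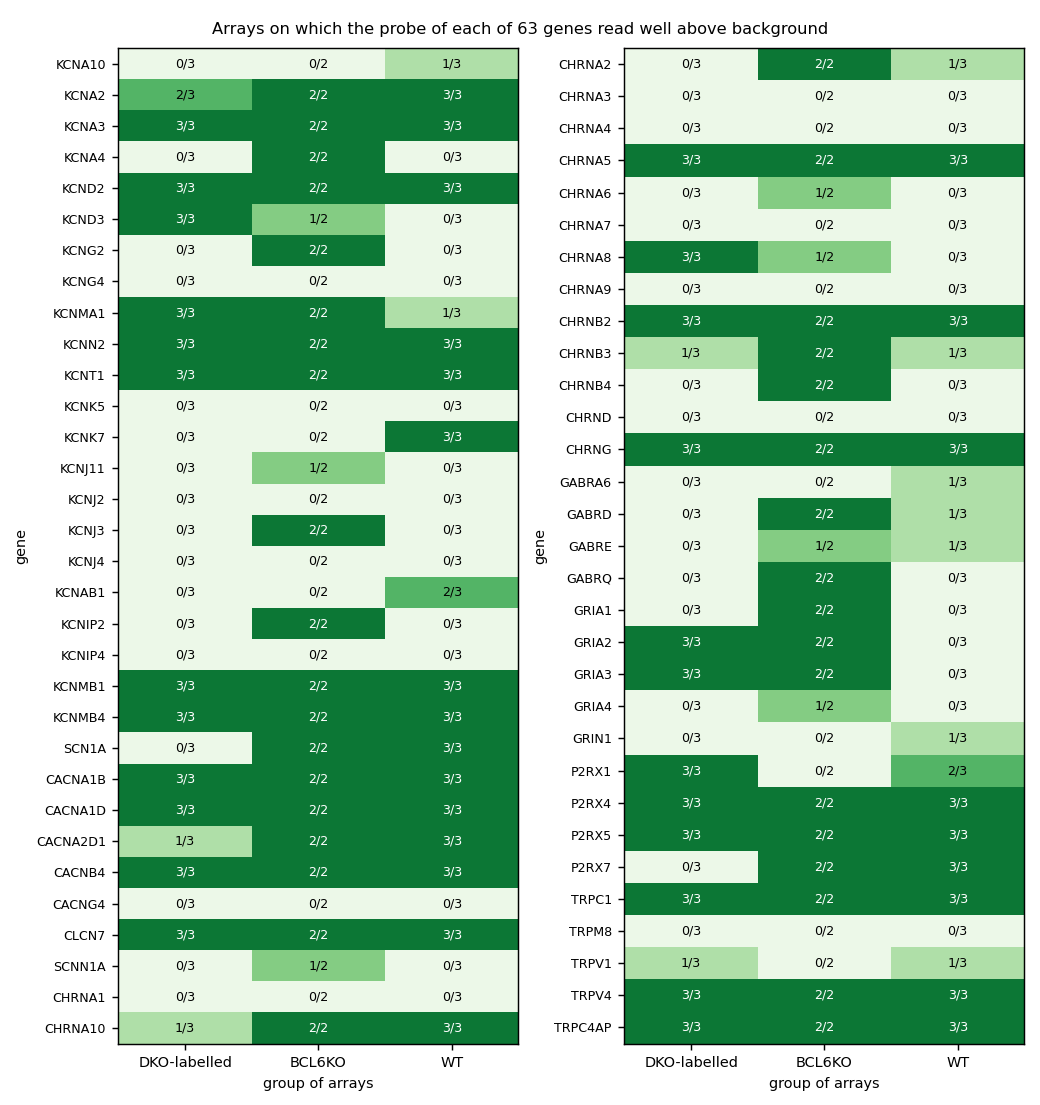
For 63 of the 66 genes (rows, ordered by family) the number of arrays in each group (columns) on which the gene's single analysed probe was well above background, with darker green for a larger share. KCNK7 was well above background on 3 of 3 WT arrays and on none of the others, whereas KCNIP2 was so on 2 of 2 BCL6KO arrays alone.

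A gene was tested when 2 or more arrays read one of its probes well above background, which held for 46 of the 66 channel genes and for 24069 genes in all. Of these 46, 19 were well above background on all 8 arrays, 8 passed through the BCL6KO arrays alone (among them CHRNB4, GABRQ, GRIA1, KCNA4, KCNG2, KCNIP2 and KCNJ3) and 2 through the WT arrays alone (KCNAB1 and KCNK7). For a gene that passed through a single group, the filter favoured a higher level there, so counts over the tested genes and the calls of such genes are descriptions. The same holds for genes that reached 2 arrays only with a certain group counted. Among these were KCND3 and CHRNA8 (DKO-labelled arrays) and CHRNA2 and GABRD (BCL6KO arrays). The filter did not fix the order, because the BCL6KO arrays accepted dimmer spots. KCNJ3 read -7.35 and -6.96 on the BCL6KO arrays and -6.72 on WT array 1. The 20 genes not tested were CACNG4, CHRNA1, CHRNA3, CHRNA4, CHRNA6, CHRNA7, CHRNA9, CHRND, GABRA6, GRIA4, GRIN1, KCNA10, KCNG4, KCNIP4, KCNJ11, KCNJ2, KCNJ4, KCNK5, SCNN1A and TRPM8. By the single probe read for each, their levels lay between -10.20 and -4.97, with 13 not well above background on any array and 7 on a single array. For SCNN1A that was BCL6KO array 1, while another of its probes read -4.50, well above background, on BCL6KO array 2.

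Between BCL6KO and WT arrays, 20 of the 46 tested channel genes were called higher and 11 lower by limma at an adjusted p under 0.05. That share, 67.4%, stood beside 69.8% of all tested genes (42.1% higher and 27.7% lower). Between DKO-labelled and BCL6KO arrays 11 were higher and 22 lower, or 71.7%, beside 68.5% of all genes (29% higher and 39.5% lower). Between DKO-labelled and WT arrays 10 were higher and 11 lower, or 45.7%, beside 52.4% of all genes (28.6% higher and 23.8% lower). The channel genes were thus called about as often as genes in general in each comparison. Their median log2 change was 0.52 for BCL6KO against WT, -0.53 for DKO-labelled against BCL6KO and -0.03 for DKO-labelled against WT, beside 0.24, -0.18 and 0.07 over all genes. Among the 19 channel genes well above background on every array, the called shares were 63.2%, 73.7% and 52.6%, beside 70.8%, 70% and 55.8% of the 17285 such genes on the array. The groups did not overlap in 22 channel genes above and 12 below for BCL6KO against WT (79.4% of all genes did not overlap), in 12 above and 27 below for DKO-labelled against BCL6KO (78.1%), and in 12 above and 14 below for DKO-labelled against WT (70%). The 3 comparisons share arrays pairwise and are not independent of each other.

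**Figure D2:**
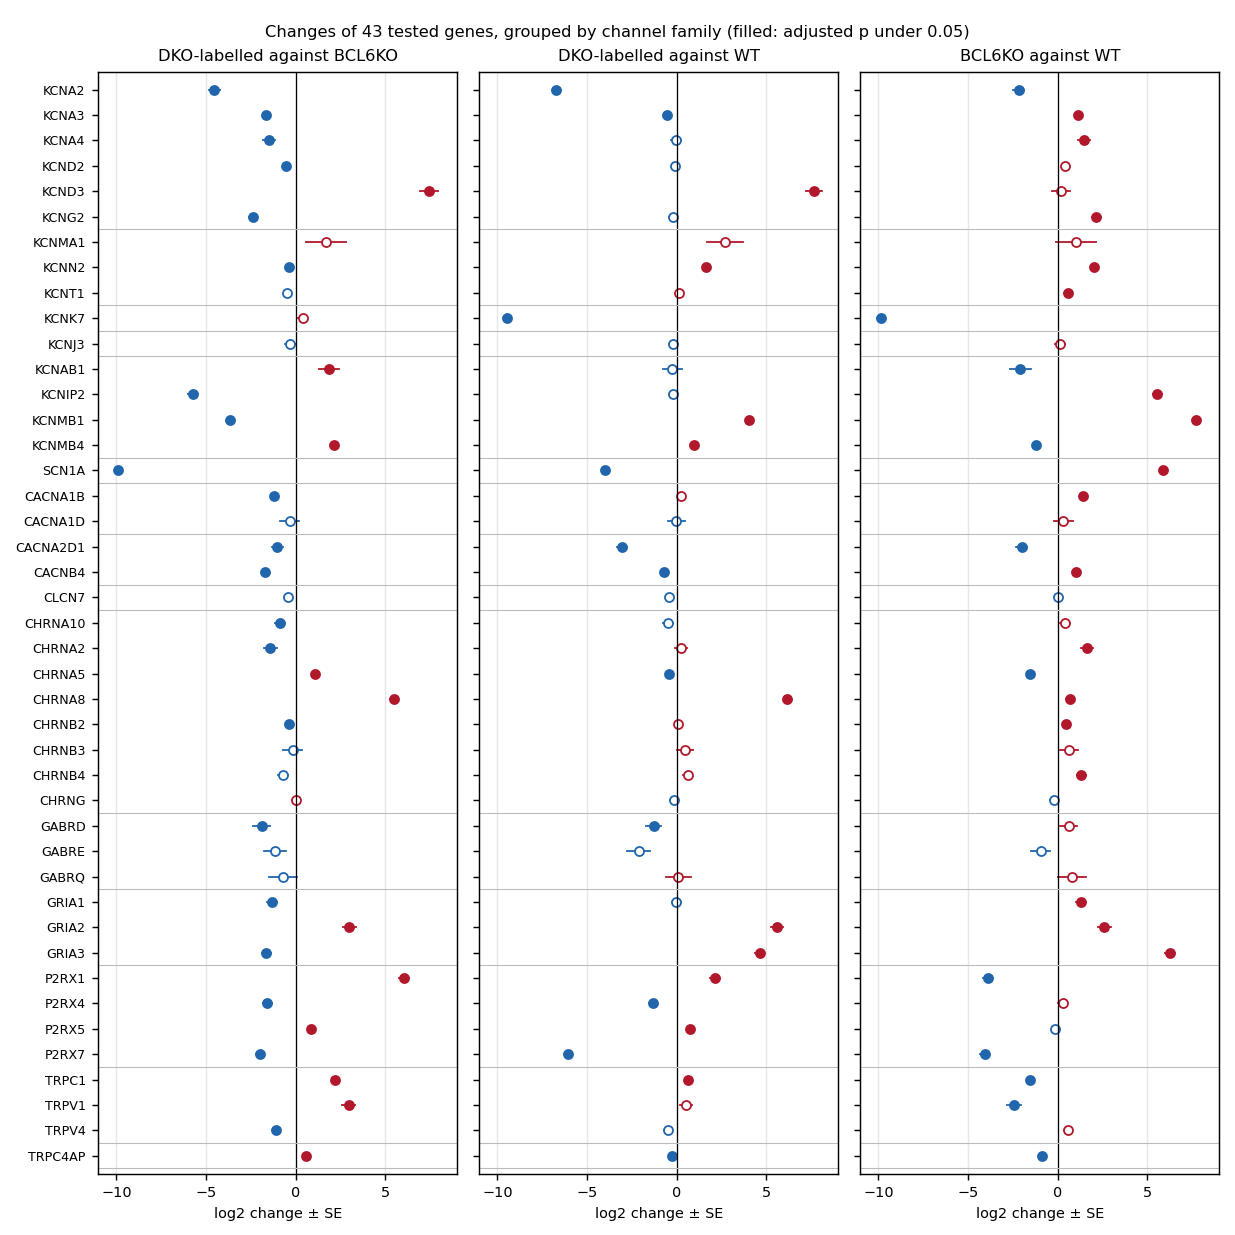
The log2 change (horizontal axis, point with its SE) of 43 of the 46 tested genes in 3 comparisons, with families set apart by grey lines, red for higher and blue for lower values in the group named first, and filled points for an adjusted p under 0.05. Changes past 7 in size were those of KCND3, KCNMB1, KCNK7 and SCN1A, while most nicotinic and GABA-A receptor subunits drawn moved by less than 2.

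Among the voltage-gated potassium channels, KCNA2, a delayed rectifier subunit, was highest on the WT arrays. Its levels were -5.93, -6.77 and -5.90 on the DKO-labelled arrays, of which 2 were well above background, -1.99 and -1.35 on the BCL6KO arrays, and 0.48, 0.54 and 0.50 on the WT arrays. The 3 groups did not overlap, and the DKO-labelled arrays were lowest. The log2 change was -6.71 (SE 0.27, adjusted p = 2.24e-06) for DKO-labelled against WT and -4.53 (SE 0.30, adjusted p = 2.11e-05) for DKO-labelled against BCL6KO. The BCL6KO arrays were 4.52-fold lower than the WT arrays (adjusted p = 0.000637). All 3 probes of the gene were called lower in both comparisons of the DKO-labelled arrays, and 2 of them in BCL6KO against WT.

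KCNA3 encodes the channel that sets much of the resting potential of lymphocytes. It read -1.49, -1.45 and -1.36 on the DKO-labelled arrays, 0.07 and 0.43 on the BCL6KO arrays, and -0.82, -0.91 and -0.86 on the WT arrays. No groups overlapped, with BCL6KO highest and DKO-labelled lowest. The difference was 3.21-fold lower in DKO-labelled than in BCL6KO arrays (adjusted p = 2.33e-05), 1.48-fold lower in DKO-labelled than in WT arrays (adjusted p = 0.003), and 2.16-fold higher in BCL6KO than in WT arrays (adjusted p = 0.000151).

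KCND3, whose product carries a fast inactivating current in heart and neurons, was bright on the DKO-labelled arrays alone. Its levels there were -1.14, -1.08 and -1.03, against -7.64 and -9.43 on the BCL6KO arrays, of which the first was well above background, and -8.98, -9.02 and -8.21 on the WT arrays, none of which was. The DKO-labelled arrays stood far from all others. KCND3 passed the filter only with these arrays counted, which favoured a higher level there. KCND3 was at least 45.0-fold higher on the DKO-labelled than on the WT arrays (log2 change 7.65, SE 0.46, adjusted p = 1.45e-05). Such a bound sets the mean of the bright group against the dimmest signal still counted as well above background on each array of the dim group, or against the probe's own signal where that is higher, and it holds for the processed signal alone. Against BCL6KO the log2 change was 7.45 (SE 0.51, adjusted p = 2.46e-05). It was 6.56 without BCL6KO array 2. Without BCL6KO array 1 the array that remained was not well above background, and no value is given. By the probe used, the closely related KCND2 changed less, with a log2 change of -0.54 (SE 0.19, adjusted p = 0.0425) for DKO-labelled against BCL6KO. The changes of its 3 probes ran from -1.32 to -0.43 there, and 2 were called lower. The KCND2 probes not used were well above background on the BCL6KO arrays alone. The array carried 1 probe for KCND3 and 3 for KCND2.

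KCNG2 encodes a modifier subunit that forms channels only together with other subunits. It was well above background on both BCL6KO arrays, at -5.77 and -5.24, and on none of the DKO-labelled (-7.74, -7.65 and -8.29) or WT arrays (-7.68, -7.55 and -7.77). The BCL6KO arrays were at least 2.10-fold higher than the WT arrays (adjusted p = 0.0002), and the DKO-labelled arrays at least 1.95-fold lower than the BCL6KO arrays (adjusted p = 0.000133). Both KCNG2 probes were called in these directions. KCNG2 passed the filter through the BCL6KO arrays alone, which favoured them. KCNA4, a channel that inactivates fast, also read well above background on the BCL6KO arrays alone, at -7.36 and -6.78. These levels lie below the dimmest accepted level of several other arrays, so no fold is given for its calls (adjusted p = 0.00724 for BCL6KO against WT and 0.00678 for DKO-labelled against BCL6KO). KCNA4 too passed the filter through the BCL6KO arrays alone, which favoured the direction of these calls. Both calls were lost with quantile normalization.

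The large-conductance calcium-activated potassium channel is built from the pore subunit KCNMA1 and auxiliary subunits of the KCNMB family, which shift its sensitivity to calcium and voltage. KCNMB1 gave the largest rise of the 46 genes in BCL6KO against WT. It read -1.04, -0.67 and -0.75 on the DKO-labelled arrays, 2.67 and 3.04 on the BCL6KO arrays, and -4.94, -4.64 and -5.01 on the WT arrays. All 8 arrays were well above background and the groups lay far apart, with BCL6KO highest and WT lowest. KCNMB1 was 209.8-fold higher on the BCL6KO than on the WT arrays (log2 change 7.71, SE 0.18, adjusted p = 1.87e-07) and 16.4-fold higher on the DKO-labelled than on the WT arrays (adjusted p = 2.06e-06). The DKO-labelled arrays were 12.8-fold lower than the BCL6KO arrays (adjusted p = 4.91e-06). A second KCNMB1 probe gave log2 changes of 7.98 and 4.01 against WT, close to those of the first.

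KCNMB4, an auxiliary subunit known from brain, had the reverse order in the BCL6KO arrays. It read -4.19, -4.30 and -4.43 on the DKO-labelled arrays, -6.10 and -6.80 on the BCL6KO arrays, and -5.31, -5.09 and -5.36 on the WT arrays. The groups did not overlap, with DKO-labelled highest and BCL6KO lowest. The gene was 4.41-fold higher on DKO-labelled than on BCL6KO arrays (adjusted p = 0.000124), 1.93-fold higher on DKO-labelled than on WT arrays (adjusted p = 0.00464) and 2.29-fold lower on BCL6KO than on WT arrays (adjusted p = 0.00195). With normexp and its aberrant background values replaced, this last call was lost.

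The pore gene KCNMA1 itself was not called in any comparison, and it is described because 1 array decided this, a choice made after its values were seen. Its levels were -3.17, -3.13 and -3.12 on the DKO-labelled arrays, -5.60 and -4.04 on the BCL6KO arrays, and -7.06, -3.42 and -7.00 on the WT arrays. WT array 2 read close to the DKO-labelled arrays, while WT arrays 1 and 3 were not well above background. The log2 change for DKO-labelled against WT was 2.68 (SE 1.00, adjusted p = 0.0616), and without WT array 2 it was 3.89 (adjusted p = 0.000883). For BCL6KO against WT it was 1.01 (adjusted p = 0.45), and 2.21 (adjusted p = 0.00851) without that array. DKO-labelled against BCL6KO gave 1.68 (adjusted p = 0.222), which was called at the same value without WT array 2 (adjusted p = 0.0162). A second KCNMA1 probe read -8.97, -9.01 and -8.20 on the WT arrays, with no array apart, and -4.87, -4.71 and -4.49 on the DKO-labelled arrays. By that probe, fitted with all other probes, DKO-labelled arrays were higher than WT (log2 change 4.03, adjusted p = 1.09e-05) and than BCL6KO arrays (log2 change 2.75, adjusted p = 9.59e-05). It was also called higher for BCL6KO against WT (log2 change 1.28), where 1 BCL6KO array and no WT array was well above background.

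KCNN2, a small-conductance channel opened by calcium through calmodulin, was higher on both the DKO-labelled and the BCL6KO arrays than on the WT arrays. It read -2.81, -2.85 and -2.94 on the DKO-labelled arrays, -2.37 and -2.67 on the BCL6KO arrays, and -4.69, -4.45 and -4.44 on the WT arrays. All WT arrays lay below every other array. KCNN2 was 3.15-fold higher on DKO-labelled than on WT arrays (adjusted p = 2.42e-05) and 4.02-fold higher on BCL6KO than on WT arrays (adjusted p = 1.32e-05). The sodium-activated KCNT1 ranged over all 8 arrays from -5.49 to -4.51 and was called in BCL6KO against WT alone (log2 change 0.57, adjusted p = 0.0376).

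KCNK7 belongs to the tandem-pore family, whose open members let potassium leak at rest. It was bright on the WT arrays alone. Its levels were -8.35, -8.63 and -8.63 on the DKO-labelled arrays and -8.51 and -9.33 on the BCL6KO arrays, none of them well above background, against 0.95, 1.01 and 0.89 on the WT arrays. The WT arrays stood far above all others. KCNK7 was at least 171-fold lower on DKO-labelled arrays (adjusted p = 2.08e-07) and at least 396-fold lower on BCL6KO arrays (adjusted p = 2.04e-07) than on WT arrays. All 3 KCNK7 probes were called in these directions, with log2 changes of -9.94 to -8.52 for DKO-labelled and -11.04 to -9.62 for BCL6KO. KCNK7 passed the filter through the WT arrays alone, which favoured these directions. Between DKO-labelled and BCL6KO arrays neither level was well above background and no fold is given (log2 change 0.38, adjusted p = 0.178, and 0.79 with a call without BCL6KO array 1). The other tandem-pore gene, KCNK5, was not tested.

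**Figure D3:**
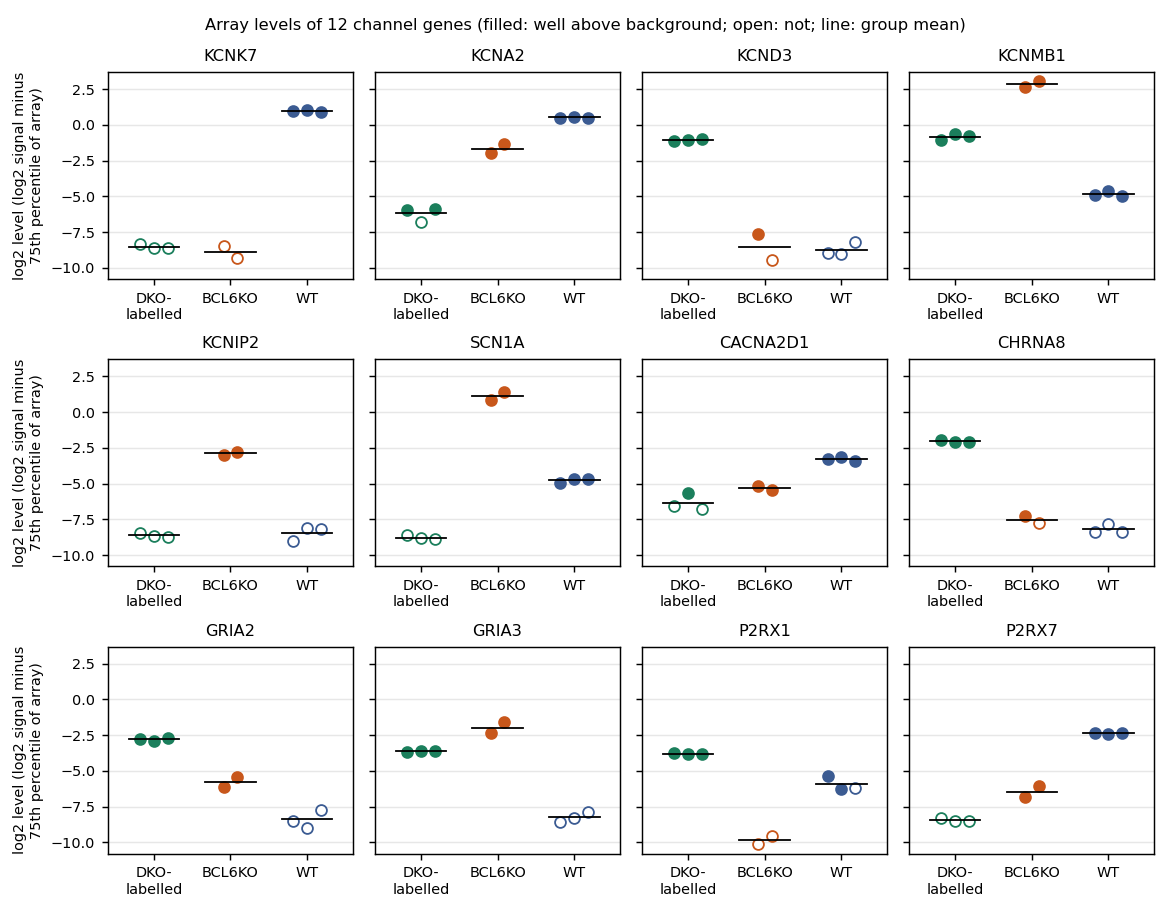
Log2 levels (vertical axis, shared by the panels) of 12 channel genes on the 8 arrays, by group, with filled points for arrays well above background, open points for the others and a line at the group mean. KCNK7 stood near 1 on the WT arrays alone, SCN1A and KCNMB1 were highest on the BCL6KO arrays, and KCND3 and CHRNA8 were bright on the DKO-labelled arrays. Levels may be compared within a panel, not between panels.

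KCNIP2, a calcium-binding subunit that partners the KCND channels, was well above background on the BCL6KO arrays alone. It read -8.44, -8.65 and -8.75 on the DKO-labelled arrays, -2.98 and -2.77 on the BCL6KO arrays, and -8.99, -8.12 and -8.19 on the WT arrays. The BCL6KO arrays stood far above the rest, while the DKO-labelled and WT arrays overlapped. KCNIP2 was at least 13.0-fold higher on BCL6KO than on WT arrays (log2 change 5.56, SE 0.27, adjusted p = 4.54e-06) and at least 12.1-fold lower on DKO-labelled than on BCL6KO arrays (adjusted p = 4.47e-06). KCNIP2 passed the filter through the BCL6KO arrays alone, which favoured these directions. Its partner gene KCND3 was bright on the DKO-labelled arrays. KCNAB1, an auxiliary subunit of the KCNA channels, was well above background on 2 WT arrays alone (-6.34 and -6.21, with -8.19 on WT array 3). It passed the filter through these alone, which favoured lower readings in the other groups. It read -7.26, -6.81 and -7.39 on the DKO-labelled arrays and -8.999 and -9.009 on the BCL6KO arrays. Its calls for BCL6KO against WT (lower, adjusted p = 0.0157) and for DKO-labelled against BCL6KO (higher, adjusted p = 0.0259, both not well above background), which carry no fold, were lost with quantile normalization, and turned in sign to 0.12 and -0.14 with normexp after its aberrant background values were replaced. KCNJ3, an inward rectifier opened by G proteins, ranged from -7.69 to -6.72 and was not called.

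SCN1A, the pore subunit of a neuronal sodium channel and the only voltage-gated sodium channel gene in the set, followed another order. It read -8.63, -8.83 and -8.91 on the DKO-labelled arrays, not well above background, 0.87 and 1.38 on the BCL6KO arrays, and -4.95, -4.66 and -4.71 on the WT arrays. The 3 groups did not overlap, with BCL6KO highest and DKO-labelled lowest. SCN1A was 59.5-fold higher on BCL6KO than on WT arrays (log2 change 5.90, SE 0.18, adjusted p = 5.38e-07). It was at least 193-fold lower on DKO-labelled than on BCL6KO arrays (adjusted p = 8.79e-08) and at least 3.24-fold lower than on WT arrays (adjusted p = 2.08e-06). The array carried 1 SCN1A probe, so no second probe checks these values. Of the 6 neuronal markers on the array, 5 were tested, and 2 were called higher and 3 lower on BCL6KO than on WT arrays. STMN2 was among the lower ones, at -3.31 and -3.01 against 5.25, 5.19 and 5.30.

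Of the voltage-gated calcium channel genes, CACNA1B, the pore subunit of a presynaptic channel, read -2.83, -2.97 and -3.01 on the DKO-labelled arrays, -1.70 and -1.78 on the BCL6KO arrays, and -2.96, -3.23 and -3.28 on the WT arrays. The BCL6KO arrays lay above all others, and the DKO-labelled and WT arrays overlapped. CACNA1B was 2.67-fold higher on BCL6KO than on WT arrays (adjusted p = 5.2e-05) and 2.29-fold lower on DKO-labelled than on BCL6KO arrays (adjusted p = 0.000126). These calls rest on 1 probe, since the other 3 CACNA1B probes were not well above background on any array. CACNA1D, the pore subunit of an L-type channel, was not called in any comparison and is described, after its values were seen, because of 1 array. WT array 2 read -2.36, against -4.14 and -4.21 on WT arrays 1 and 3, while the DKO-labelled arrays read -3.55 to -3.65 and the BCL6KO arrays -3.40 and -3.12. For DKO-labelled against WT the log2 change was -0.03 (adjusted p = 0.968), and 0.58 (adjusted p = 0.00701) without WT array 2. BCL6KO against WT gave 0.31 (adjusted p = 0.626), and 0.91 (adjusted p = 0.00118) without it. DKO-labelled against BCL6KO stayed at -0.34 and was called without that array (adjusted p = 0.035). WT array 2 was also the array that stood apart for KCNMA1, and the other 3 CACNA1D probes were not well above background on any array, so no second probe bears on it.

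The auxiliary calcium channel subunits went different ways. CACNA2D1, which brings the pore subunit to the membrane, read -6.60, -5.65 and -6.76 on the DKO-labelled arrays, of which 1 was well above background, -5.19 and -5.42 on the BCL6KO arrays, and -3.31, -3.15 and -3.43 on the WT arrays. Every WT array lay above every DKO-labelled and BCL6KO array. The log2 change was -3.04 (SE 0.29, adjusted p = 0.000134) for DKO-labelled against WT, and the BCL6KO arrays were 4.03-fold lower than the WT arrays (adjusted p = 0.0013). A second probe gave -2.94 and -2.01 in the same comparisons. CACNB4, a cytoplasmic subunit that regulates gating, read -2.94, -3.18 and -3.16 on the DKO-labelled arrays, -1.38 and -1.33 on the BCL6KO arrays, and -2.34, -2.39 and -2.37 on the WT arrays. Its groups did not overlap, with BCL6KO highest and DKO-labelled lowest. CACNB4 was 3.33-fold lower on DKO-labelled than on BCL6KO arrays (adjusted p = 6.3e-06), 1.65-fold lower on DKO-labelled than on WT arrays (adjusted p = 0.000271) and 2.02-fold higher on BCL6KO than on WT arrays (adjusted p = 6.98e-05). The chloride transporter gene CLCN7, whose product works in lysosomes, was well above background on all 8 arrays, between 1.27 and 2.08, and was not called.

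Nicotinic acetylcholine receptors are channels of several subunits that open on acetylcholine. Of the 15 subunit genes, 8 were tested, and 7 of the alpha and delta subunits were not. The most marked was CHRNA8, a neuronal subunit described in chicken. It read -1.93, -2.10 and -2.11 on the DKO-labelled arrays, -7.29 and -7.75 on the BCL6KO arrays, of which the first was well above background, and -8.41, -7.83 and -8.36 on the WT arrays, none of which was. The DKO-labelled arrays stood far above the rest. CHRNA8 passed the filter only with these arrays counted, which favoured a higher level there. CHRNA8 was at least 23.1-fold higher on DKO-labelled than on WT arrays (log2 change 6.15, SE 0.19, adjusted p = 8.28e-07), and the log2 change against BCL6KO was 5.47 (SE 0.21, adjusted p = 2.01e-06). As for KCND3, the array carried a single probe.

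CHRNA5, an accessory subunit, was lowest on the BCL6KO arrays. It read -3.73, -3.59 and -3.68 on the DKO-labelled arrays, -4.89 and -4.63 on the BCL6KO arrays, and -3.29, -3.10 and -3.29 on the WT arrays. No groups overlapped. The gene was 2.13-fold higher on DKO-labelled than on BCL6KO arrays (adjusted p = 0.000136) and 2.89-fold lower on BCL6KO than on WT arrays (adjusted p = 2.53e-05). It was 1.36-fold lower on DKO-labelled than on WT arrays (adjusted p = 0.00773), a call that was lost with the slide as a block (adjusted p = 0.0854). The subunit gene CHRNA2 was higher on BCL6KO than on WT arrays (log2 change 1.64, adjusted p = 0.00557). It read -5.29 and -5.10 on the BCL6KO arrays and -6.11 to -7.29 on the WT arrays, of which 1 was well above background. CHRNA2 passed the filter only with the BCL6KO arrays counted, which favoured this direction. CHRNB4 read -7.18 and -6.75 on the BCL6KO arrays and passed through those arrays alone, so the filter favoured the direction of its call against WT and no change is given. CHRNB2, a subunit of the common brain receptor, ranged from -3.44 to -2.88 over all arrays and was 1.36-fold higher on BCL6KO than on WT arrays (adjusted p = 0.00139), although its second probe was not called. CHRNA10, CHRNB3 and CHRNG lay between -7.19 and -2.95 and were not called against WT in either group.

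GABA-A receptors are chloride channels opened by GABA. Of the 7 subunit genes, 6 were tested, and the largest log2 change in size was -2.117, that of GABRE for DKO-labelled against WT. GABRD, an extrasynaptic subunit, was lower on DKO-labelled arrays (-8.55, -8.81 and -8.70, not well above background) than on BCL6KO arrays (-6.36 and -7.20, adjusted p = 0.0109) and WT arrays (-6.66, -7.23 and -8.31, adjusted p = 0.0415). Of the WT arrays, only the first was well above background. GABRD passed the filter only with the BCL6KO arrays counted, which favoured the direction of its call against them. The BCL6KO and WT means, -6.78 and -7.40, lie below the lowest accepted levels of the DKO-labelled arrays (-6.32 to -6.59), so no fold is given. GABRE lost 3 arrays to outlier flags (DKO-labelled arrays 2 and 3 and WT array 1), so its fit used 5 arrays, and it was not called. Fits on fewer arrays called it, for DKO-labelled against WT without WT array 2 (-1.43) or WT array 3 (-2.80), for DKO-labelled against BCL6KO without either of these (-1.16), and for BCL6KO against WT without WT array 3 (-1.64).

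AMPA receptors carry fast glutamate currents, and their GRIA2 subunit limits their calcium permeability. By the single probe used for each, GRIA2 and GRIA3 were well above background on every DKO-labelled and BCL6KO array and on no WT array. Another GRIA3 probe was well above background on WT array 3, at -5.78. Some other GRIA2 probes were not so on both BCL6KO arrays. GRIA3 read -3.65, -3.62 and -3.61 on the DKO-labelled arrays, -2.35 and -1.61 on the BCL6KO arrays, and -8.55, -8.30 and -7.89 on the WT arrays. The groups did not overlap, with BCL6KO highest. GRIA3 was at least 7.72-fold higher on DKO-labelled (log2 change 4.62, SE 0.23, adjusted p = 6.13e-06) and at least 24.2-fold higher on BCL6KO (log2 change 6.26, SE 0.26, adjusted p = 2.14e-06) than on WT arrays, and 3.13-fold lower on DKO-labelled than on BCL6KO arrays (adjusted p = 0.00123). All 3 GRIA3 probes were called in these directions.

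GRIA2 read -2.78, -2.90 and -2.70 on the DKO-labelled arrays, -6.15 and -5.43 on the BCL6KO arrays, and -8.48, -8.97 and -7.71 on the WT arrays. Here the DKO-labelled arrays were highest, and no groups overlapped. GRIA2 was at least 13.8-fold higher on DKO-labelled than on WT arrays (adjusted p = 1.49e-05), 7.99-fold higher on DKO-labelled than on BCL6KO arrays (adjusted p = 0.000426), and at least 1.73-fold higher on BCL6KO than on WT arrays (adjusted p = 0.000806). Its 5 kept probes spread widely. For DKO-labelled against WT 4 of them were called higher, with log2 changes of all 5 between 1.61 and 5.60. For BCL6KO against WT 2 were called higher, and the changes ran from -0.61 to 3.82. For DKO-labelled against BCL6KO 3 were called higher, and the changes ran from -0.22 to 3.35. The value of -0.22 came from a GRIA2 probe well above background on all arrays of both groups. GRIA1 passed through the BCL6KO arrays alone, at -6.65 and -6.78, so the filter favoured the direction of its calls there and no change is given. Both calls were lost with quantile normalization.

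P2X receptors are cation channels opened by extracellular ATP, and all 4 genes were tested. P2RX7, which in immune cells responds to high ATP, was highest on the WT arrays. It read -8.26, -8.51 and -8.54 on the DKO-labelled arrays, not well above background, -6.85 and -6.03 on the BCL6KO arrays, and -2.35, -2.40 and -2.34 on the WT arrays. The groups did not overlap. P2RX7 was at least 17.2-fold lower on DKO-labelled than on WT arrays (log2 change -6.07, SE 0.20, adjusted p = 1.08e-06) and 16.9-fold lower on BCL6KO than on WT arrays (adjusted p = 8.76e-06). Its call for DKO-labelled against BCL6KO (at least 1.02-fold lower, adjusted p = 0.000281) was lost with the mean over probes. A second probe was lower in both other groups than in WT as well (log2 changes -3.64 and -3.64, adjusted p = 0.0207 and 0.0248), although it read -2.43 on WT array 3 and -6.38 and -6.20 on WT arrays 1 and 2.

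P2RX1, an ATP receptor that desensitises fast, was highest on the DKO-labelled arrays. It read -3.74, -3.84 and -3.82 on the DKO-labelled arrays, -10.13 and -9.56 on the BCL6KO arrays, not well above background, and -5.39, -6.26 and -6.16 on the WT arrays, of which 2 were. No groups overlapped. P2RX1 was at least 14.7-fold higher on DKO-labelled than on BCL6KO arrays (log2 change 6.04, SE 0.29, adjusted p = 4.67e-06), and the log2 change for DKO-labelled against WT was 2.14 (SE 0.26, adjusted p = 0.000439). It was at least 3.33-fold lower on BCL6KO than on WT arrays (adjusted p = 3.11e-05). Both P2RX1 probes were called in these directions.

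P2RX4, a slowly desensitising receptor found in lysosomes as well as at the surface, was covered by 6 probes. It read -1.04, -1.10 and -1.09 on the DKO-labelled arrays, 0.99 and 0.02 on the BCL6KO arrays, and 0.24, 0.18 and 0.25 on the WT arrays. The DKO-labelled arrays lay below all others, and BCL6KO and WT overlapped. P2RX4 was 2.47-fold lower on DKO-labelled than on WT arrays (adjusted p = 0.00257) and 3.001-fold lower than on BCL6KO arrays (adjusted p = 0.00132), and all 6 probes were called lower in both. P2RX5, a subunit that also joins P2RX1, read -2.38, -2.40 and -2.41 on the DKO-labelled arrays, -3.13 and -3.42 on the BCL6KO arrays, and -3.17, -3.21 and -3.05 on the WT arrays. The DKO-labelled arrays were highest, 1.68-fold above WT (adjusted p = 0.000495) and 1.84-fold above BCL6KO (adjusted p = 0.000301). A second P2RX5 probe, well above background on the BCL6KO arrays alone, gave 1.08 for DKO-labelled against WT (adjusted p = 0.00131), -0.08 for DKO-labelled against BCL6KO (not called) and 1.16 for BCL6KO against WT (adjusted p = 0.00116), where the first was not called.

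Of the 4 TRP channels, TRPC1, a cation channel subunit, read -1.42, -1.47 and -1.48 on the DKO-labelled arrays, -3.57 and -3.71 on the BCL6KO arrays, and -2.08, -2.09 and -2.13 on the WT arrays. The groups did not overlap, with DKO-labelled highest and BCL6KO lowest. TRPC1 was 4.55-fold higher on DKO-labelled than on BCL6KO arrays (adjusted p = 9.16e-07), 1.56-fold higher on DKO-labelled than on WT arrays (adjusted p = 0.000167) and 2.91-fold lower on BCL6KO than on WT arrays (adjusted p = 3.61e-06). All 3 TRPC1 probes were called in these directions. TRPV1, the heat and capsaicin receptor, was well above background on 1 DKO-labelled, 0 BCL6KO and 1 WT array, between -10.06 and -6.45. Its calls for DKO-labelled against BCL6KO (higher, adjusted p = 0.000432) and for BCL6KO against WT (lower, adjusted p = 0.00104), which carry no fold because no group was well above background throughout, were lost with normexp after replacement of its aberrant background values, where the second of these became 0.11. TRPV4, which responds to osmotic and mechanical stimuli, was 2.13-fold lower on DKO-labelled arrays (-4.23, -4.21 and -4.35) than on BCL6KO arrays (-3.57 and -2.78, adjusted p = 0.00425). TRPC4AP was well above background on every array. It was 1.82-fold lower on BCL6KO than on WT arrays (adjusted p = 0.000221), 1.497-fold higher on DKO-labelled than on BCL6KO arrays (adjusted p = 0.00157), and 1.22-fold lower on DKO-labelled than on WT arrays (adjusted p = 0.0295, lost with the slide as a block at 0.11).

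The values of separate probes bear on these results. The 66 genes had 121 probes, of which 76 were well above background on at least 2 arrays, and 18 genes had several such probes. No gene had probes called in opposite directions in any of the 3 comparisons. All such probes of a gene were called the same way in 9 of the 18 for BCL6KO against WT, 8 for DKO-labelled against BCL6KO and 11 for DKO-labelled against WT. Dimmer probes, among them 3 of CACNA1B and 3 of CACNA1D, do not enter these counts. KCND3, CHRNA8, KCNIP2 and SCN1A, which had large changes, had 1 probe each.

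**Figure D4:**
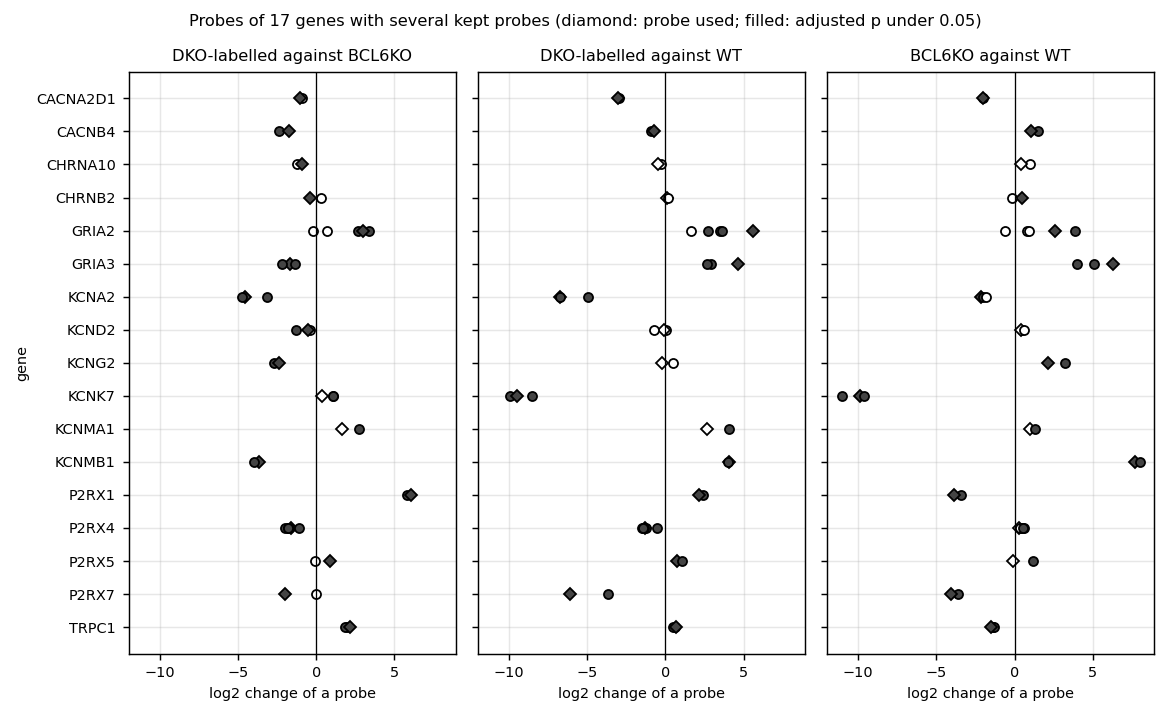
The log2 change of every kept probe (horizontal axis) for 17 of the 18 genes with several such probes (rows) in 3 comparisons, with diamonds for the probe used elsewhere, circles for the others and filled symbols for an adjusted p under 0.05. The probes of KCNMB1, P2RX1 and TRPC1 lay close together. For BCL6KO against WT, those of KCNK7 ran from -11.04 to -9.62 and those of GRIA2 from -0.61 to 3.82.

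Slides 2 and 3 each held DKO-labelled and WT arrays, so that comparison could also be read within a slide. All 21 called channel genes kept their sign within both slides, as did 12568 of all 12620 called genes. The arrays on these slides also gave the calls, so this is not an independent check. The within-slide difference, DKO-labelled minus WT, was -9.36 and -9.52 for KCNK7, 7.88 and 7.13 for KCND3, 5.90 and 6.26 for CHRNA8 and -6.48 and -7.27 for KCNA2. With the slide as a block, 18 of the 21 remained called, all but CHRNA5, GABRD and TRPC4AP.

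When each array was left out in turn, 25 of 31 calls remained throughout for BCL6KO against WT, 25 of 33 for DKO-labelled against BCL6KO and 19 of 21 for DKO-labelled against WT. Among the calls for BCL6KO against WT, CHRNA8 was lost without BCL6KO array 1 (log2 change 0.45), WT array 1 (0.58) or WT array 3 (0.60), and KCNA4 without BCL6KO array 2 (1.15). KCNT1 was lost without BCL6KO array 2 (0.33), DKO-labelled array 2 (0.57) or any WT array (0.62, 0.60 and 0.50), and KCNAB1 without either BCL6KO array (-2.10 and -2.09). For DKO-labelled against BCL6KO, CHRNA2 was lost without BCL6KO array 2 (-1.32) and GABRD without BCL6KO array 1 (-1.48). CACNA2D1 was lost without either BCL6KO array (-0.91 and -1.14), DKO-labelled array 1 (-0.90) or array 3 (-0.82), and CHRNA10 without BCL6KO array 2 (-0.68), DKO-labelled array 1 (-0.85) or array 3 (-0.75). KCNAB1 was lost without either BCL6KO array (1.86 and 1.85), DKO-labelled array 1 (1.90) or array 2 (1.68). KCND2 was lost without BCL6KO array 2 (-0.29), DKO-labelled array 1 (-0.45) or 2 (-0.50) or any WT array (-0.54). KCNN2 was lost without BCL6KO array 1 (-0.20), any DKO-labelled array (-0.38, -0.36 and -0.32), or WT array 2 or 3 (-0.35). For DKO-labelled against WT, GABRD was lost without any DKO-labelled array (-1.36, -1.23 and -1.28), WT array 1 (-0.92) or WT array 2 (-1.21). TRPC4AP was lost without DKO-labelled array 1 (-0.26) or 3 (-0.25) or WT array 1 (-0.23) or 3 (-0.29). The calls of KCNK7, SCN1A, KCNMB1, KCNIP2, GRIA3, P2RX1 and TRPC1 remained in each of these fits. With quantile normalization 23 of 31, 24 of 33 and 20 of 21 calls remained. Among those lost were CHRNA8, KCNT1, KCNA4, KCNAB1 and GRIA1 for BCL6KO against WT, CACNA2D1, CHRNA10, GABRD, GRIA1, KCNA4, KCNAB1, KCND2 and KCNN2 for DKO-labelled against BCL6KO, and GABRD for DKO-labelled against WT.

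How far a dim group lay below a bright one depended on the background correction. Normexp was run with a chosen constant of 50 added to all signals, and is given here with its aberrant readings replaced. The log2 change of KCNK7 was then -6.27 for DKO-labelled and -5.68 for BCL6KO against WT. That of SCN1A was -6.62 for DKO-labelled against BCL6KO and -1.40 for DKO-labelled against WT. KCND3 gave 4.68 and CHRNA8 3.43 for DKO-labelled against WT, and 3.86 and 2.85 for DKO-labelled against BCL6KO. KCNIP2 gave 2.81 for BCL6KO against WT and -2.75 for DKO-labelled against BCL6KO. All of these calls remained, with smaller changes. GRIA2 gave 2.64 for DKO-labelled and 0.95 for BCL6KO against WT, and GRIA3 gave 1.94 and 3.38. P2RX7 gave -2.97 for DKO-labelled and -2.23 for BCL6KO against WT. P2RX1 gave 1.60 for DKO-labelled against BCL6KO and -0.36 (adjusted p = 0.028) for BCL6KO against WT. Bounds written "at least" apply to the processed signal alone. Of 19 such bounds on called channel genes, 15 were larger than the change under this correction, and the other 4 were those of GRIA2 for BCL6KO against WT, KCNG2 in both of its calls and P2RX7 for DKO-labelled against BCL6KO. KCNMB1, well above background on every array, gave 6.83 for BCL6KO and 3.29 for DKO-labelled against WT. KCNMA1 was called for DKO-labelled against WT under it (log2 change 1.56, adjusted p = 0.0107).

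Genes that work beside these channels were read from a pair of lists. Of 41 genes for calcium stores and store-operated calcium entry, 16 were on the array and tested, with 8 higher and 4 lower for BCL6KO against WT, 5 and 8 for DKO-labelled against BCL6KO, and 4 and 3 for DKO-labelled against WT. In this last comparison 4 genes were called in all without DKO-labelled array 3 and 12 without either BCL6KO array. The shares called were 75%, 81.2% and 43.8%, beside the 69.8%, 68.5% and 52.4% of all genes. The store-operated channel gene ORAI1 read 2.57, 2.58 and 2.45 on the DKO-labelled arrays, 1.51 and 1.95 on the BCL6KO arrays, and 2.43, 2.32 and 2.32 on the WT arrays. ORAI1 was 1.55-fold lower on BCL6KO than on WT arrays (adjusted p = 0.00494) and 1.75-fold higher on DKO-labelled than on BCL6KO arrays (adjusted p = 0.00163). Its calcium sensor gene STIM1 was 1.53-fold lower on DKO-labelled than on WT arrays (adjusted p = 0.000157). ATP2A3, a calcium pump of the endoplasmic reticulum, read -3.04, -2.44 and -2.30 on the DKO-labelled arrays, -5.66 and -6.92 on the BCL6KO arrays, and 0.22, 0.17 and 0.16 on the WT arrays. It was 6.87-fold lower on DKO-labelled (adjusted p = 0.000474) and 88.9-fold lower on BCL6KO (adjusted p = 1.06e-05) than on WT arrays. RYR3, a calcium release channel of internal stores, was well above background on the BCL6KO arrays alone, at -1.94 and -1.66, at least 27.4-fold above WT (adjusted p = 3.2e-05). It passed the filter through those arrays alone, which favoured that direction. The plasma membrane calcium pump gene ATP2B1 was 3.19-fold higher on BCL6KO than on WT arrays (adjusted p = 1.97e-05).

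Of 68 other channel and pump genes, 20 were on the array and 13 were tested, with 4 higher and 5 lower for BCL6KO against WT, 4 and 3 for DKO-labelled against BCL6KO, and 4 and 7 for DKO-labelled against WT. The shares called of these 13 genes were 69.2%, 53.8% and 84.6%, beside 69.8%, 68.5% and 52.4% of all genes. HVCN1, the voltage-gated proton channel of B cells and phagocytes, read 2.49, 2.58 and 2.83 on the DKO-labelled arrays, -4.03 and -3.56 on the BCL6KO arrays, and 4.90, 4.73 and 4.86 on the WT arrays. The groups did not overlap. HVCN1 was 393-fold lower on BCL6KO than on WT arrays (adjusted p = 9.7e-08) and 86.1-fold higher on DKO-labelled than on BCL6KO arrays (adjusted p = 3.77e-07). PKD2, a cation channel of the TRP superfamily, was well above background on the WT arrays alone, at -2.04, -1.94 and -1.92. It was at least 22.7-fold lower on DKO-labelled (adjusted p = 2.1e-07) and at least 52.4-fold lower on BCL6KO arrays (adjusted p = 1.27e-07). PKD2 passed the filter through the WT arrays alone, which favoured these directions. ANO5, of the anoctamin family of chloride channels and scramblases, read -4.95, -4.75 and -4.90 on the DKO-labelled arrays, 0.73 and 0.69 on the BCL6KO arrays, and -1.64, -1.62 and -1.77 on the WT arrays. It was 9.12-fold lower on DKO-labelled than on WT arrays (adjusted p = 3.43e-07) and 5.24-fold higher on BCL6KO than on WT arrays (adjusted p = 1.28e-06). Its family member ANO3 was at least 8.13-fold higher on DKO-labelled than on WT arrays (adjusted p = 0.00165), at -3.48, -3.60 and -3.59. ANO3 passed the filter only with the DKO-labelled arrays counted, which favoured that direction.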

How the data were processed

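Total RNA of DT40 cells was measured on Agilent chicken 1-colour arrays, 3 labelled DKO, 2 BCL6KO and 3 WT. Per the file headers, the deposited intensity values are linear processed signals from which Feature Extraction had subtracted background and spatial trends array by array (version 10.7.1.1 for DKO and WT, 10.7.3.1 for BCL6KO), with no normalization between arrays. The authors' deposited value table also holds intensity, and the submitters' processing notes name limma and R 2.12.0 for it. That table was not used for results because its WT and DKO columns do not follow the scanner files of the same labels. Biotin is the dye field of the labels, whereas their protocol describes Cy3.

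Levels were log2 of the processed signal minus the array's 75th percentile, with control spots and outlier-flagged spots left out. Accessions were matched to RefSeq, which named 10857 of 43603 probes. Each gene was read by a single probe, the brightest on average among its probes that 2 or more of the 8 arrays read well above background. A single model, fitted in R 4.3.3 (packages data.table, version 1.17.8, and limma, version 3.58.1), gave 3 group means on 5 residual and 1.596 prior degrees of freedom, tested on simulated data first. P-values were adjusted by Benjamini-Hochberg over 24069 genes, and calls are at 0.05. The number of arrays limits the precision. Between 62.4% and 79.2% of 43803 spots per array were well above background, 0 were saturated, and the lowest correlation within a group was 0.984.

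Named genes were KCNK7 and SCN1A, the 12 largest called rises and falls among channel genes in each comparison, the brightest gene of a family, and up to 3 rises and falls of each companion list. KCNMA1 and CACNA1D were added after their values were seen, as were smaller calls given beside their families. A few genes that these rules reach are counted but not reported here by name. Members and lists were chosen with earlier results of these data known. Replicate numbers do not pair samples (correlation of deviations between same-numbered arrays -0.059 to 0.044). Alternatives covered scaling, quantile normalization, normexp background correction, the filter on dim probes, the probe per gene, a minimum fold of 1.5, the replicate and slide blocks and each array left out. Only the 2 groups compared, and flagged spots kept, were alternatives added after seeing the data.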

Additional observations from a re-analysis of the deposited data

How the results depend on the processing

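The direction of every called channel gene held with scaling by the median, the mean over probes, the replicate block and each array left out. It also held with the slide block, run for DKO-labelled against WT alone, and with the 3-array filter in the called genes that passed it (23 of 31 for BCL6KO against WT, 26 of 33 for DKO-labelled against BCL6KO and 21 of 21 for DKO-labelled against WT). Under quantile normalization it held in all but 1 gene. Scaling by the median kept 26 of 31 calls for BCL6KO against WT, 30 of 33 for DKO-labelled against BCL6KO and 21 of 21 for DKO-labelled against WT. Over all genes it lowered the share of calls that are higher to 45.3% (60.3% with the 75th percentile) for BCL6KO against WT, and to 41.8% (54.6%) for DKO-labelled against WT, and moved the median change of all genes to -0.05 (0.24) and -0.08 (0.07). Quantile normalization left 13 channel genes higher for BCL6KO against WT, beside 8186 of all 24069 tested genes. A minimum fold of 1.5 left 13 higher for BCL6KO against WT, 12 lower for DKO-labelled against BCL6KO and 6 lower for DKO-labelled against WT. Over all 24069 tested genes it left 5420, 4736 and 2393 in these directions, and 8604, 8119 and 5262 in either direction. In the calcium list it left 7, 7 and 1 called genes in those comparisons, and 5 in the other list for DKO-labelled against WT. Without the filter on dim probes more genes were tested, and 19 channel genes were lower for BCL6KO against WT, 17 higher for DKO-labelled against BCL6KO, and 12 genes of the other list were called for DKO-labelled against BCL6KO. Of 31523 genes in all, 9339 were lower for BCL6KO against WT. For DKO-labelled against BCL6KO 9878 were higher and 19515 were called in either direction. With the 2 compared groups alone 12 calcium genes were called for DKO-labelled against WT (15336 of all 24069 genes). Leaving out arrays gave 4 to 12 there, with 12 without either BCL6KO array and 4 without DKO-labelled array 3.

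Normexp rests on background readings, and 18 of these were aberrant on BCL6KO array 1. As deposited, it left 9 channel genes higher and 2 lower for BCL6KO against WT, 1 and 10 for DKO-labelled against BCL6KO, and 3 and 4 for DKO-labelled against WT. Of all 24069 tested genes it left 4602 higher and 2283 lower, 2098 and 3842, and 1490 and 1333 in the same order. Calcium genes called by limma were 6, 8 and 0 in these comparisons (10, 11 and 3 at an unadjusted p under 0.05, with no other tool run), and genes of the other list 4, 3 and 2. For BCL6KO against WT the sign turned for CACNA2D1 (0.78), CHRNA5 (0.77), KCNAB1 (2.17), KCNMB4 (1.75), P2RX1 (1.74), TRPC1 (0.079) and TRPV1 (2.19). For DKO-labelled against BCL6KO it turned for CHRNA5 (-1.08), GRIA2 (-0.15), KCNAB1 (-2.19), KCNMB4 (-1.06), P2RX1 (-0.49), P2RX5 (-0.59) and TRPV1 (-1.99). With these readings replaced by the array's median, 28 of 31, 31 of 33 and 20 of 21 calls remained. The sign still turned for KCNAB1 (0.12 and -0.14), for TRPV1 in BCL6KO against WT (0.11), and for KCNK7 in DKO-labelled against BCL6KO (-0.59), where both groups are dim. CACNA1D, at -0.03 for DKO-labelled against WT and not called, ran from -0.34 without WT array 3 to 0.58 without WT array 2. No cause was tested beyond these readings.

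With each array left out, channel genes called higher and lower numbered 17 to 21 and 11 to 12 for BCL6KO against WT, 10 to 12 and 17 to 23 for DKO-labelled against BCL6KO, and 10 to 13 and 9 to 13 for DKO-labelled against WT. Calcium genes called numbered 10 to 14 and 12 to 14 in the comparisons with BCL6KO arrays. Genes of the other list numbered 8 to 10, 7 to 9 and 10 to 12. The replicate numbers are not a pairing. With them as a block, 27 of 31, 29 of 33 and 20 of 21 calls remained, with 16 higher and 12 lower for BCL6KO against WT, 11 and 19 for DKO-labelled against BCL6KO and 11 and 11 for DKO-labelled against WT. Of all 24069 tested genes 9231 were higher and 6098 lower, 6345 and 8542, and 6147 and 5170 in the same order. The authors' value table was not run, since its columns contradict the labels. Signal over background limits what can be said of the 20 untested genes and of every bound, and the BCL6KO group rests on 2 arrays.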
